A study of Mus musculus with 6 samples.

Results

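Motile cilia genes were followed in sorted medullary thymic epithelial cells (mTEC) of the mouse, through 10 genes chosen by name: the regulators of multiciliation Foxj1, Mcidas, Ccno, Rfx2 and Rfx3, and the axoneme genes Dnah5, Dnah9, Dnah11, Tekt1 and Tekt2. All 10 were found by symbol among the 52636 gene rows of the read count table. RNA was sequenced by an ultra-low input protocol from 3 libraries of tuft-like mTEC and 3 libraries of non-tuft-like mTEC, sorted from the thymus of C57BL/6 mice at 6 weeks of age. Both populations bound the lectin UEA, had low MHCII and lacked Sca1 and CD63 at the surface; the labels give CD80 as absent and the study's text as low. The tuft-like cells carried CD117 and CD66a, and the non-tuft-like cells carried neither. No genetic change or treatment is given for either population. Libraries held between 20097617 and 48369825 reads on genes. Nothing in the labels says whether the 3 libraries of a population came from separate mice, so p-values measure the spread between these libraries, which may be technical.

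A motile cilium beats through its axoneme, a ring of microtubule doublets on which dynein motors slide. Cells that bear many such cilia are programmed in steps: MCIDAS, with E2F factors, starts the amplification of centrioles, CCNO takes part in forming them, and FOXJ1 together with RFX factors switches on the genes of the axoneme. In the thymic medulla, some epithelial cells take on features of peripheral tissues, ciliated cells and tuft cells among them. Neither sorted population was selected for a marker of ciliated cells.

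None of the 10 genes passed the test between the populations: 0 of 10 had an adjusted p under 0.05 in edgeR's quasi-likelihood F-test, against 2.11% of the 32496 genes tested. For calls in the lower direction the share over all tested genes was 0.951%. Yet 9 of the 10 estimates lay on the side of lower expression in the tuft-like population (median log2 fold change -1.30), whereas over all tested genes 49.0% of estimates were lower and the median was 0.02. At an unadjusted p under 0.05 the count was 4 of 10, Foxj1, Ccno, Dnah9 and Tekt2, all lower, against 8.97% of all tested genes in either direction. In 4 of 10, Foxj1, Rfx2, Dnah9 and Tekt2, every tuft-like library lay below every non-tuft-like library. Over all tested genes, 8.85% were separated in that direction and 16% in either direction. An exact permutation test of 3 libraries against 3 cannot give a p below 0.1. DESeq2 called 2 of the 10 (Foxj1 with an adjusted p of 0.0271 and Dnah9 with 0.0283), edgeR's likelihood ratio test called 1 (Dnah9, adjusted p = 0.0422) and limma voom called 0. The share called with DESeq2 was 4.21% of the 47762 genes with any read, since the filter on low counts was not used there. For the likelihood ratio test and limma voom the shares were 3.8% and 2.78% of 32496 genes tested. DESeq2's own defaults can leave genes with low or outlying counts without an adjusted p, and their number was not counted. The share for DESeq2 is thus not on the same base as the other 2. In sorted bulk samples, fewer ciliated cells and less RNA per cell cannot be told apart.

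RFX factors bind a motif known as the X-box, and the letters GTTGCC form the conserved core of its half-site. Of the 10 genes, 9 had a promoter window in RefSeq's annotation of GRCm38.p6, reaching from 250 bases before to 50 bases after the start of transcription; Foxj1 had no entry. These letters, on either strand, occurred in 6 of the 9 windows (66.7%), compared with 3821 of 27025 genes (14.1%) over all promoters and 45 of 94 (47.9%) of other ciliary genes listed further on. The stretches before the start are shown for the 5 genes in which the letters lay there, because RFX factors are themselves among the genes measured. Capitals mark GTTGCC, or GGCAAC where the match is on the opposite strand, and each run is read 5′ to 3′ on the strand of its gene.
Mcidas: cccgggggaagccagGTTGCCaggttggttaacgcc
Ccno: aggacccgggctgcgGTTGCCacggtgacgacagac
Rfx2: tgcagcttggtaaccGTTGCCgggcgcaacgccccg
Tekt1: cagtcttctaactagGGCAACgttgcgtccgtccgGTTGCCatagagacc
Tekt2: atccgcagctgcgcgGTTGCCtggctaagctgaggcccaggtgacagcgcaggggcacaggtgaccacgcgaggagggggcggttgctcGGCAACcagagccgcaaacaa

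The Mcidas run lies at chr13:112993658-112993693 on the plus strand, with the half-site starting at position -195 from the RefSeq start. That of Ccno lies at chr13:112987568-112987603, also on the plus strand, with its half-site at position -219. The Rfx2 run (chr17:56831104-56831139, minus strand) has its half-site at position -116. Both tektin genes hold a pair of matches: Tekt1 at positions -35 and -15 (chr11:72361883-72361932, minus strand) and Tekt2 at positions -96 and -22 (chr4:126325690-126325799, minus strand). In Rfx3 the letters stood 31 bases after the start. They were not in the windows of Dnah5, Dnah9 and Dnah11. A forkhead motif, GTAAACA on either strand, was in 0 of the 9 windows and in 4.05% of all genes with a promoter. Neither motif contains the other, and a match of letters is a description of the sequence and not a binding site.

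Among the regulators, Foxj1, the forkhead factor that drives the axonemal gene programme (chromosome 11, 116330704 to 116335399, minus strand, mm10), was measured at 46.0, 23.5 and 21.9 CPM (reads scaled to library size, with TMM normalization) in non-tuft-like libraries 1 to 3 and at 13.4, 5.50 and 9.33 CPM in tuft-like libraries 1 to 3. Every tuft-like library was below every non-tuft-like library, and non-tuft-like library 1 was well above its replicates. The log2 fold change of tuft-like over non-tuft-like was -1.70 ± 0.52 (approximate SE, n = 3 per population; edgeR adjusted p = 0.183). Mcidas (chromosome 13, 112993845 to 113000394, plus strand), a geminin-like coactivator early in the programme, gave 42.3, 16.1 and 13.1 CPM in non-tuft-like and 18.5, 6.96 and 0.0276 CPM in tuft-like libraries. The last value rests on 1 read, below the 0.0828 CPM that a count of 0 would still allow in that library, and the tuft-like libraries spread more widely than the populations differed. The populations overlapped, with a log2 fold change of -1.49 ± 1.25 (edgeR adjusted p = 1.0) that ran from -2.77 without tuft-like library 1 to -0.79 without non-tuft-like library 1. Ccno, a cyclin-like protein of centriole assembly, is the neighbour of Mcidas: it lies on the same strand of chromosome 13, from 112987802 to 112990777, and ends 3067 bp before Mcidas starts. Its levels were 61.8, 17.1 and 9.6 CPM in non-tuft-like and 9.63, 9.47 and 5.0 CPM in tuft-like libraries. Non-tuft-like library 1 alone stood high, and non-tuft-like library 3 was level with tuft-like library 1. The log2 fold change of Ccno was -1.88 ± 0.69 (edgeR adjusted p = 0.340), and -0.75 without non-tuft-like library 1.

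Both RFX factors were expressed in both populations, but with different spread. Rfx2 (chromosome 17, 56775897 to 56831013, minus strand), a factor known from ciliated and sperm cells, had 73.5, 48.0 and 48.0 CPM in the non-tuft-like libraries and 27.1, 21.7 and 0.690 CPM in the tuft-like ones. The populations did not overlap, and tuft-like library 3, with 25 reads, was far below its replicates. Its log2 fold change was -1.78 ± 0.88 (edgeR adjusted p = 0.666), and -1.25 without that library. Rfx3 (chromosome 19, 27761721 to 28011166, minus strand), a factor also used for immotile primary cilia, had 68.1, 56.2 and 50.9 CPM in non-tuft-like and 58.1, 47.2 and 48.4 CPM in tuft-like libraries. Here all 6 libraries lay close together and the populations overlapped. The log2 fold change of Rfx3, -0.19 ± 0.27 (edgeR adjusted p = 1.0), had the smallest SE of the 10 genes.

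**Figure D1:**
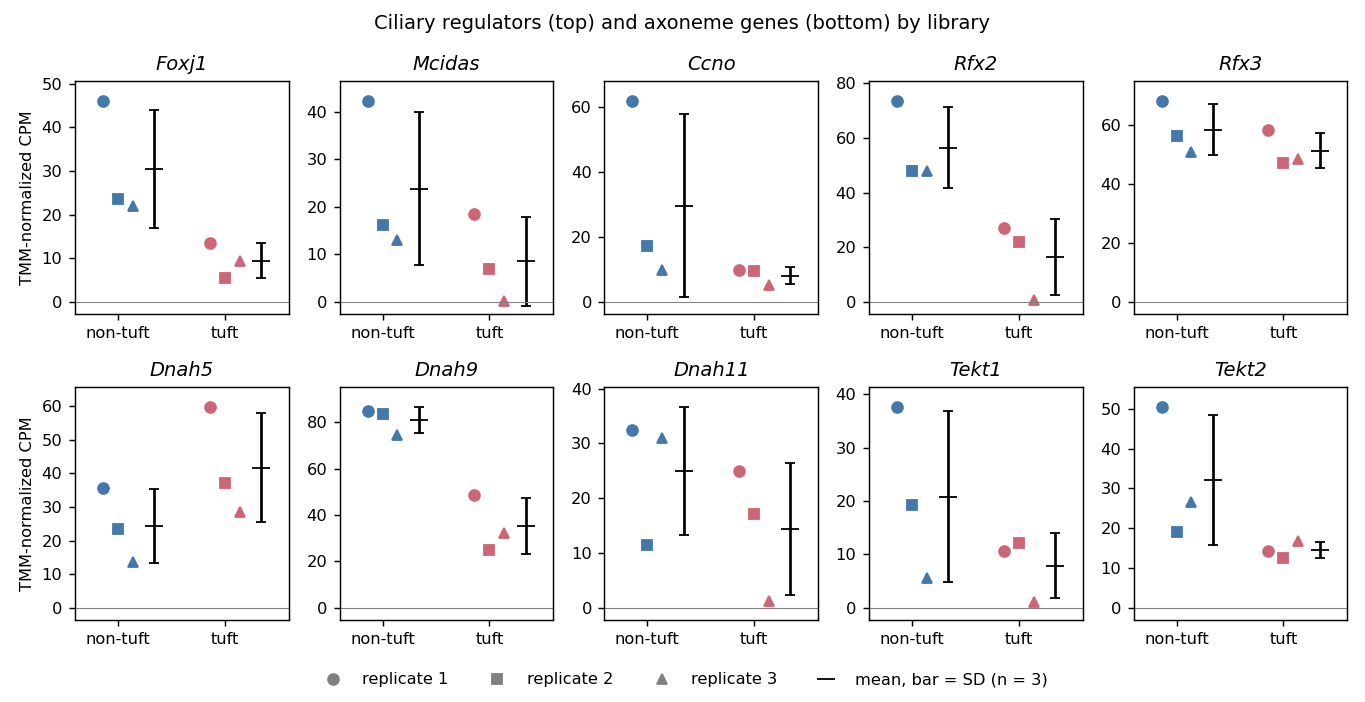
TMM-normalized CPM of the 5 regulators (top) and the 5 axoneme genes (bottom) in each library; blue, non-tuft-like; red, tuft-like; circle, square and triangle, replicates 1, 2 and 3; black, mean with SD (n = 3). Foxj1, Rfx2, Dnah9 and Tekt2 show tuft-like libraries wholly below the non-tuft-like ones, and the circle of non-tuft-like library 1 is the highest point for 9 of 10 genes.

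Among the axoneme genes, the 3 dynein heavy chains did not lie on 1 side. Dnah5 (chromosome 15, 28203752 to 28472052, plus strand), a motor of the outer dynein arm, gave 35.7, 23.4 and 13.6 CPM in non-tuft-like and 59.7, 37.1 and 28.4 CPM in tuft-like libraries. It was the only one of the 10 genes with a higher estimate in tuft-like mTEC, but the populations overlapped. Its log2 fold change was 0.78 ± 0.44 (edgeR adjusted p = 0.813), and ran from 0.44 without tuft-like library 1 to 1.15 without non-tuft-like library 1. Dnah9 (chromosome 11, 65831282 to 66168551, minus strand), another outer arm motor, gave 84.8, 83.5 and 74.4 CPM against 48.6, 25.0 and 32.4 CPM. The non-tuft-like libraries lay close together, and every tuft-like library was well below them. The log2 fold change of Dnah9 was -1.19 ± 0.31, with the lowest adjusted p of the 10 genes (edgeR, 0.104). It ran from -1.49 without tuft-like library 1 to -1.002 without tuft-like library 2. The edgeR adjusted p was 0.0409 without tuft-like library 1. Leaving out any other library gave an adjusted p between 0.151 (tuft-like library 3) and 0.517 (tuft-like library 2). Dnah11 (chromosome 12, 117877982 to 118199043, minus strand), an outer arm motor of the proximal axoneme, gave 32.4, 11.4 and 30.9 CPM in non-tuft-like and 24.9, 17.0 and 1.16 CPM in tuft-like libraries. Each population had 1 low library, and they overlapped. Its log2 fold change was -0.80 ± 0.85 (edgeR adjusted p = 1.0), and ran from -1.45 without tuft-like library 1 to -0.29 without tuft-like library 3.

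Tektins are filaments inside the doublet microtubules. Tekt1 (chromosome 11, 72344722 to 72362442, minus strand) gave 37.6, 19.4 and 5.56 CPM in non-tuft-like and 10.6, 12.1 and 1.02 CPM in tuft-like libraries. The populations overlapped through non-tuft-like library 3. The log2 fold change of Tekt1 was -1.40 ± 0.90 (edgeR adjusted p = 0.955). Tekt2 (chromosome 4, 126322121 to 126325688, minus strand) gave 50.4, 19.1 and 26.7 CPM against 14.2, 12.6 and 16.7 CPM. The tuft-like libraries were tightly grouped, just below the lowest non-tuft-like library. Its log2 fold change was -1.15 ± 0.45 (edgeR adjusted p = 0.409). Exons of Dnah9, Dnah11 and Tekt2 overlap genes on the opposite strand by 495, 642 and 396 bp; the strand setting of the counting is not given in the sources used here, so reads there cannot be assigned to one gene.

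**Figure D2:**
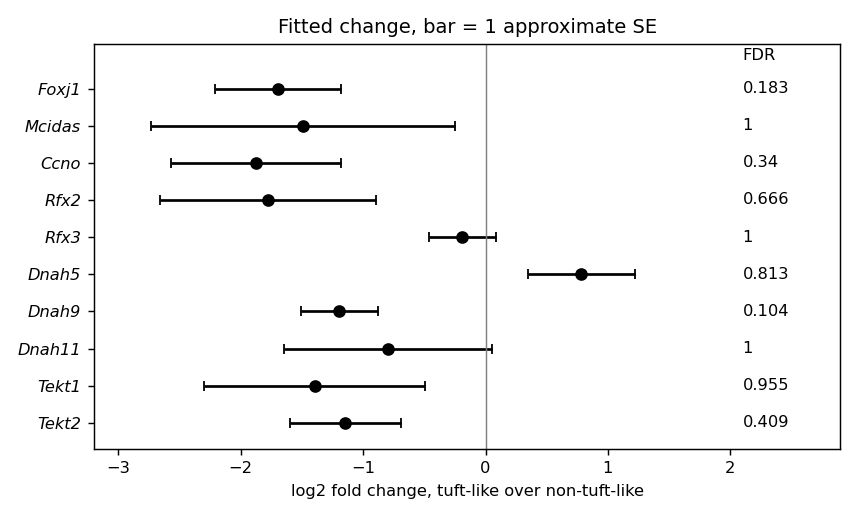
Fitted log2 fold change of each gene, tuft-like over non-tuft-like, with 1 approximate SE, and the adjusted p of edgeR's quasi-likelihood test (FDR) at the right. Points for 9 genes lie left of 0, Dnah5 lies right of it at 0.78, and Mcidas has the widest bar at 1.25.

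Dividing by the length of all annotated exons put the genes on a rough common scale. Read coverage along transcripts was not checked, which limits comparisons between long and short genes. On this scale the order in non-tuft-like mTEC began with Tekt2 at 16.9 ± 8.59 CPM per kb (SD, n = 3) and Tekt1 at 12.8 ± 9.90. Foxj1 (11.6 ± 5.15), Ccno (11.5 ± 11) and Mcidas (10.03 ± 6.75) followed, and these first 5 genes did not differ from one another beyond the SD of their libraries. Rfx2 stood at 7.73 ± 2.02, Rfx3 at 5.29 ± 0.79 and Dnah9 at 5.07 ± 0.35 CPM per kb. Dnah11 (1.72 ± 0.81) and Dnah5 (1.55 ± 0.71) came last, below Dnah9 by more than their SD. In tuft-like mTEC, Tekt2 was again first at 7.62 ± 1.08 CPM per kb and Dnah11 last at 0.993 ± 0.836. Between them stood Tekt1 (4.88 ± 3.71), Rfx3 (4.64 ± 0.54), Foxj1 (3.59 ± 1.505), Mcidas (3.57 ± 3.92), Ccno (3.14 ± 1.03), Dnah5 (2.67 ± 1.03), Rfx2 (2.26 ± 1.91) and Dnah9 (2.22 ± 0.76), most of them within an SD of their neighbours. Dnah5, near the bottom in non-tuft-like mTEC, thus stood level with Rfx2 and Dnah9 in tuft-like mTEC.

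As a reference for low signal, chosen after the data were seen, the 99th percentile of 1134 olfactory receptor genes, most of which are silent outside the nose, was at 1.24 to 2.75 CPM per kb. Foxj1, Ccno, Rfx3 and Tekt2 exceeded it in all 6 libraries, as did Mcidas, Rfx2, Dnah9 and Tekt1 in all 3 non-tuft-like and 2 of 3 tuft-like libraries. Dnah5 exceeded it in 1 non-tuft-like and all 3 tuft-like libraries. Dnah11 exceeded it in 1 non-tuft-like and in 0 tuft-like libraries, so its level was at or near this reference. The mean of these olfactory receptor genes ran from 0.0666 to 0.644 CPM per kb between libraries.

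**Figure D3:**
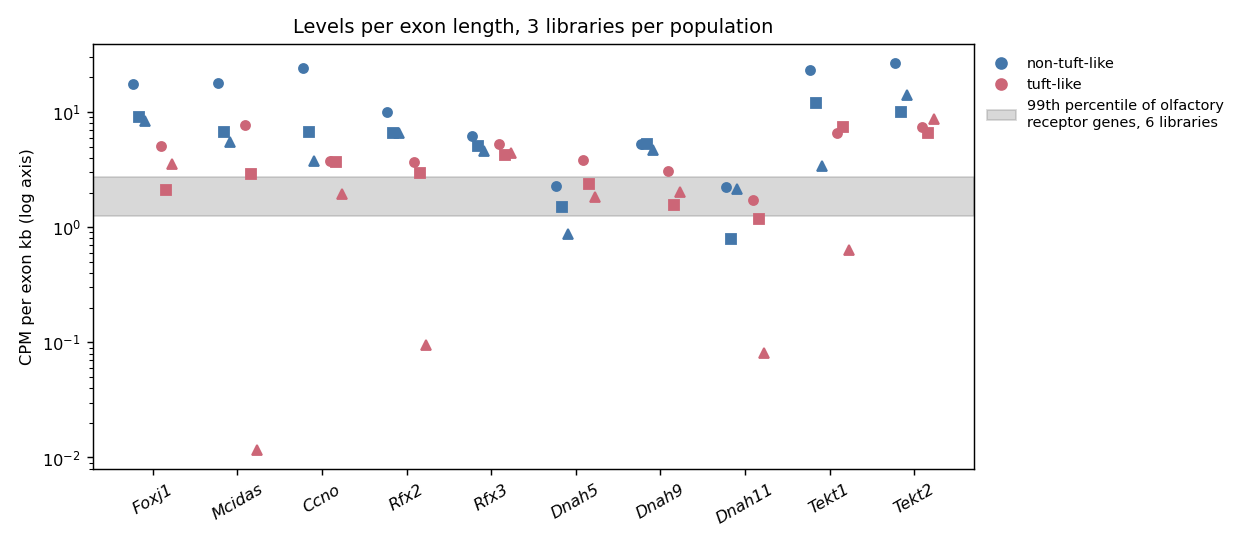
CPM per exon kb (log axis) of each gene in the 3 non-tuft-like (blue) and 3 tuft-like (red) libraries; circle, square and triangle, replicates 1, 2 and 3; grey band, range over the 6 libraries of the 99th percentile of olfactory receptor genes. Dnah5 and Dnah11 lie in or around the band, and the triangles of tuft-like library 3 drop far below it for Mcidas, Rfx2 and Dnah11.

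Individual libraries carried much of the spread. Non-tuft-like library 1 was the highest of all 6 for 9 of the 10 genes, for 53% of 115 other ciliary genes tested and for 14.9% of all tested genes. Without it, the log2 fold changes were -1.28 for Foxj1, -0.68 for Tekt1 and -0.67 for Tekt2. Tuft-like library 3 was the lowest for 5 of the 10 genes, for 47% of the other ciliary genes and for 33.2% of all tested genes. Mcidas and Rfx2 were under 1 CPM in that library and in no other. In the same library 29 of the 115 other ciliary genes were under 1 CPM, whereas 5 of the 115 were under 1 CPM in at least 1 of the other 5 libraries. Genes under 1 CPM were not counted over all tested genes, so these low values cannot be called particular to the ciliary genes. The share of reads that fell in no annotated gene differed as well, at 34.4%, 36.6% and 52.5% in non-tuft-like and 61.6%, 47.6% and 19.7% in tuft-like libraries 1 to 3. Within the tuft-like libraries 5 of the 10 genes, Mcidas, Ccno, Rfx2, Dnah5 and Dnah11, followed the order of this share, with library 1 highest and library 3 lowest, and 0 ran opposite to it. Within the non-tuft-like libraries 0 followed it and 8 ran opposite, all but Dnah11 and Tekt2. For Rfx2 this order rests on 47.99 against 47.96 CPM in non-tuft-like libraries 2 and 3, which are level. The orders were not counted over all tested genes, so they cannot be called particular to the ciliary genes. Over all 6 libraries the olfactory receptor mean had the same order as the share. The part of this share in the ciliary values was not tested.

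Of 117 further ciliary genes in 9 lists, 115 passed the filter on low counts, 3 were called higher in tuft-like mTEC and 1 lower, against 2.11% of all tested genes called in either direction and 0.951% lower. Their median log2 fold change was -0.44, with 84 estimates lower and 31 higher. Ttc25, which helps to dock outer dynein arms on the axoneme, rose by a log2 fold change of 3.05 ± 0.35 (edgeR adjusted p = 0.00135), from 17.2, 24.1 and 20.0 CPM to 111, 165 and 231 CPM. Dnaaf3, which helps to assemble dynein arms in the cytoplasm, rose by 2.29 ± 0.38 (edgeR adjusted p = 0.0113), from 47.0, 35.7 and 29.4 CPM to 112, 158 and 280 CPM. Part of its exons is shared with other genes, 86 bp on the same strand and 281 bp on the opposite strand. Tekt5, a tektin best known from sperm flagella, rose by 1.97 ± 0.42 (edgeR adjusted p = 0.0406), from 13.9, 11.03 and 13.3 CPM to 28.6, 45.4 and 75.6 CPM. Tfdp1, a partner of E2F factors that also serves the cell cycle in every dividing cell, fell by 1.32 on the log2 scale (SE 0.28, edgeR adjusted p = 0.0389), with 63.1, 65.6 and 64.6 CPM against 25.4, 26.9 and 25.4 CPM. In all 4 genes, which were picked by the test, the populations did not overlap. Of the 115 tested genes, 16 were apart in the lower direction and 6 in the higher. Over all tested genes, 8.85% were apart in the lower direction and 16% in either direction. GTTGCC was in 0 of the 3 promoter windows found for the 4 called genes. With the replicate number as a block, 2 of the 4 calls were made, Ttc25 and Dnaaf3.

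By role, the other regulators of multiciliation had a median log2 fold change of -1.31, with 1 of 14 called, Tfdp1. Gmnc, the earliest known regulator of the programme, had an estimate of -3.52 ± 1.51 from low levels of 4.73, 2.81 and 5.78 CPM against 0.0413, 0.935 and 0.166 CPM (edgeR adjusted p = 0.498). The highest of the list per kb after Tfdp1 were E2f4 (0.52) and Ccna1 (-1.38), neither called. Dynein intermediate and light chains and docking factors had a median of -1.45 over 9 genes, although Ttc25 was called higher; Dynlrb2, a light chain, stood at 75.7, 31.9 and 11.2 CPM against 17.1, 8.01 and 4.78 CPM, with a log2 fold change of -1.99 ± 0.70 (edgeR adjusted p = 0.292). Dnaic1 and Dnaic2 had log2 fold changes of -0.57 and -1.70. The 12 other dynein heavy chains had a median of -0.63 and 0 calls, with Dnah2 at -0.88, Dnah6 at -0.42 and Dnah10 at -1.61. For 10 of the 12, tuft-like library 3 was the lowest.

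The dynein assembly factors had a median of 0.12 over 9 tested genes, and beside Dnaaf3 held estimates of 1.35 for Lrrc6 and -1.68 for Zmynd10. Central pair and radial spoke genes had a median of -0.17 over 13 genes, with Spag6l at -1.34 and the spoke genes Rsph1, Rsph3a and Rsph9 at -0.59, 0.06 and 0.07. The nexin-dynein regulatory complex and rulers, which set the spacing of the motors, had a median of -1.01 over 8 genes, with Ccdc40 at -1.18, Drc1 at -1.01, Drc3 at -0.58 and Gas8 at 0.26. Other tektins and doublet inner proteins had a median of -0.59, and 14 of 15 estimates were lower, Tekt5 being the exception. Cfap45 and Cfap20 of this list had log2 fold changes of -1.11 and -0.41. Ciliated cell markers outside the axoneme core had a median of -1.15, with 11 of 12 lower; Lrrc23 had a log2 fold change of -1.48, Fam183b of -0.88 and Tppp3 of 0.74. Intraflagellar transport genes, which build primary and motile cilia alike, had a median of -0.08 over 23 genes, near that of all genes. Ift81 stood at 1.40 ± 0.32 (edgeR adjusted p = 0.0545), Ift52 at 0.86, Ift20 at 0.31 and Ift57 at -0.35. Apart from Tekt5 and Dnaaf3, no gene named from these last lists passed the test.

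**Figure D4:**
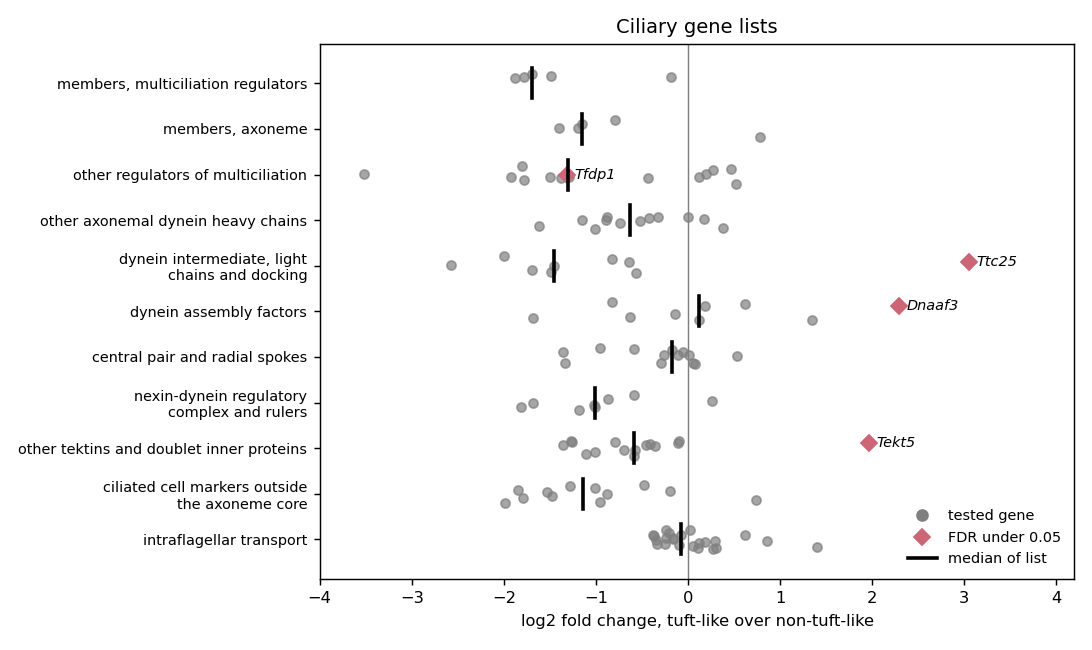
Log2 fold change, tuft-like over non-tuft-like, of every tested gene of the 2 groups of chosen genes and the 9 other ciliary lists; diamonds, adjusted p under 0.05 in edgeR's quasi-likelihood test; black bars, list medians. The regulators have a median of -1.70, the axoneme genes of -1.15 and intraflagellar transport genes of -0.08, and the 4 called genes are Ttc25, Dnaaf3, Tekt5 and Tfdp1.

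The genes whose log2 CPM followed that of Foxj1 most closely over the 6 libraries, of 23823 compared, were Homez, E130307A14Rik, 1700088E04Rik, Tmem212 and Atp7a, with Pearson correlations of 0.995 to 0.993. Tmem212 is one of the ciliated cell markers above. With 6 points that share the population difference, the correlations are a description. Genes of sperm outside motile cilia, such as the protamines, gave sums of 1.02 to 16.2 CPM per library over 8 genes, 6 of which were tested, and none had an unadjusted p under 0.05 or an adjusted p under 0.05 in edgeR's test.

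Markers of the sorted cells followed the labels: 9 of 10 tuft cell markers were called higher in tuft-like mTEC. Among the 9 was Ceacam1, which encodes the sorting marker CD66a. Only Kit, which encodes the sorting marker CD117, was not called (edgeR adjusted p = 0.0678). The study had already reported Dclk1, Il25, Ceacam1 and Kit as enriched in the tuft-like fraction of these data. The summed level of the 10 markers was 597 to 728 CPM in non-tuft-like and 7991 to 13401 CPM in tuft-like libraries. Of the 6 thymic epithelium markers, Krt14, Foxn1 and Aire were called lower, and the sums were 3921 to 4473 and 2916 to 6781 CPM. Sums of 7 thymocyte markers were 17.7 to 30.3 CPM in non-tuft-like and 8.51 to 33.9 CPM in tuft-like libraries. For 6 macrophage and dendritic cell markers they were 210.1 to 344 and 123 to 188 CPM, with Cd68 called lower and C1qa at 2.0 CPM or less in every library. For 4 B cell markers they were 16.5 to 20.4 and 61.5 to 102 CPM, with Cd79b called higher and Cd79a at 1.61 CPM or less. For 5 fibroblast markers they were 30.1 to 50.4 and 14 to 137 CPM, and for 4 endothelial markers 33 to 58.8 and 165 to 328 CPM, with Tek called higher. Tek alone gave 169, 142 and 225 CPM in tuft-like libraries 1 to 3. In the same libraries Pecam1 gave 106, 8.16 and 3.07 CPM, Kdr 41.2, 12.7 and 0.221 CPM, and Cdh5 11.1, 2.54 and 2.40 CPM. The sums of macrophage and dendritic cell markers were lower in every tuft-like library, the direction of most ciliary estimates. Lyz2 gave most of each sum, at 302, 229 and 138 CPM in non-tuft-like and 153, 113 and 170 CPM in tuft-like libraries. For Lyz2 the populations overlapped, and it was not called (edgeR adjusted p = 0.787). The part of such cells in the ciliary values was not tested.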

How the data were processed

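Reads of the 6 libraries (3 per population, grouped by the sample labels) were processed by the authors with Trimmomatic (0.36), STAR (2.7.3a, genome build mm10) and HTSeq. The deposited values are whole read counts per gene, not normalized; strand setting and annotation release are not given in the sources used here. Gene rows (52636) were named through GENCODE M21 annotation of mm10 (99.7% matched; unnamed rows held 0.0164% of counts). ERCC control rows (92) and rows of unassigned reads were left out.

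Low genes were removed by filterByExpr (count of at least 10, total of at least 15). TMM factors scaled the libraries, and 32496 genes went into the quasi-likelihood F-test of edgeR (4.0.16, R 4.3.3). P-values were adjusted by Benjamini-Hochberg and called under 0.05. SE was approximated as the absolute log2 fold change over the square root of F. The procedure was tested on simulated data. Alternatives used DESeq2 (1.42.0), limma voom (3.58.1), other scalings, filters, a replicate block and leaving out each library. Library depth limits a count of 0 to 0.0639 to 0.124 CPM (3 counts), which covers counting error only. No pair of libraries was a copy, since identical counts were found in 1.36% of genes at most.

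The 10 genes and all lists were chosen with earlier results of these data known. From each list, genes were named if called, if at an unadjusted p under 0.05, or if among the 3 highest per kb. A gene that this rule names is not reported here. Promoter sequences are RefSeq's, of GRCm38.p6.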

Additional observations from a re-analysis of the deposited data

How the results depend on the processing

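All 14 alternatives refitted the same libraries with at most 1 left out, so their values are not independent. Over them, the 10 log2 fold changes gave 140 values, of which 0 changed sign. The number of these genes called was 0 throughout except for 2 with DESeq2, 1 with the likelihood ratio test and, leaving out each library, 0 to 1, the call being Dnah9 without tuft-like replicate 1. Genes without overlap between populations numbered 4 to 7 when a library was left out. The 7 came without tuft-like replicate 1, where 28.3% of all tested genes were apart, against 16% with all libraries, since fewer libraries separate more easily. Among fold changes, limma voom gave -3.97 for Mcidas, -3.15 for Rfx2 and -1.66 for Dnah11, and the replicate block -2.64 for Mcidas and -1.21 for Dnah11. Of the other ciliary genes, 4 were called, and 5 or 6 under other scalings, filters and tests. With the replicate block 2 were called, and without a library 1 to 5. The counts were 2, 1 and 2 without non-tuft-like replicates 1, 2 and 3 and 2 without tuft-like replicate 2. Leaving out 1 library, Tekt5 and Ift81 were called only without tuft-like replicate 1, and Tfdp1 only without tuft-like replicate 3. Ift81, not called in the main fit, was called under all other scalings, filters and tests, but not with the replicate block. Over all genes, 687 calls became 1045 with library size only, 2013 with DESeq2, 1236 with the likelihood ratio test, 1127 with no filter on low counts, 737 with the replicate block and 376 to 922 without a library (379 without non-tuft-like replicate 2, 376 without tuft-like replicate 2). Calls also fell to 530 and 531 without non-tuft-like replicates 1 and 3. They rose to 743 and 922 without tuft-like replicates 1 and 3. The causes of these changes in calls were not tested. The median log2 fold change of all genes, 0.02, lay between -0.20 and 0.15 over these alternatives (0.13 with DESeq2). Deviations of same-numbered libraries correlated at -0.16, -0.06 and -0.33. Each deviation was taken from a mean of only 3 libraries and also holds differences in library quality. These values therefore cannot settle whether same-numbered libraries shared mice. Precision was limited by 3 libraries per population: SEs reached 1.25 (Mcidas), and estimates of over 3 times their SE (Foxj1, Dnah9) did not pass the adjusted threshold.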
